A study of Homo sapiens with 16 samples.

Results

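Nascent transcription of the nuclear tRNA genes was described by amino acid and anticodon. Members were the rows of the deposited tRNA and 5S rRNA table whose name begins with tRNA-, less the genes of Tyr-GTA, Leu-CAA, Ile-TAT and Arg-TCT, whose human families hold genes with introns, and less the selenocysteine genes. This left 552 of 632 rows, or of 10581 rows in the 3 deposited tables, by row names alone. The 552 genes were summed into 60 families, each an amino acid with an anticodon.

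The data were 16 TT-chem-seq libraries of HAP1 cells, which descend from the leukaemic KBM-7 line and are nearly haploid, with the wild-type genotype in every group. In this assay newly made RNA takes up 4-thiouridine (4-SU), is fragmented chemically, biotinylated and pulled down. Cells received 1 mM 4-SU for the last 30 min, except those of the group given none, and RNA from yeast served as the spike-in. The 8 groups held 2 libraries each: cells without 4-SU, untreated cells, and cells given 1 µM BMH-21, 100 µM DRB or 20 µM ML-60218 for 1 h or 5 h. BMH-21 is an inhibitor of RNA polymerase I, DRB blocks elongation by RNA polymerase II through its kinase, and ML-60218 is described as an inhibitor of RNA polymerase III. The labels call the replicates biological without saying whether they were separate cultures, so each p reflects only how far these libraries spread. Of 10 blood lineage markers, 5 were listed in the mRNA table, and their deposited values in untreated replicates 1 and 2 ran from 12.2 and 10.3 for KIT to 0 and 0 for CD33. CD38 (2.82 and 3.49), GATA1 (1.74 and 1.86) and SPI1 (0.54 and 0.67) lay between them. None of 6 adherent or epithelial markers was listed in the mRNA table. A gene not listed has no value here, so these markers do not show which lineage the cells resemble.

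A tRNA carries an amino acid to the ribosome and reads the matching codon through its anticodon, and several genes usually encode each anticodon. RNA polymerase III makes tRNA from a promoter inside the gene, where TFIIIC binds and recruits TFIIIB, and RNase P and RNase Z then trim the ends of the precursor. Mature tRNA is long-lived, so a pull-down of newly made RNA reads synthesis more closely than the pool in the cell does. In a gene name such as tRNA-His-GTG-1-7, the amino acid and anticodon are followed by the number of the mature sequence (the isodecoder) and then of the gene copy. How reads that fit several identical copies were assigned is not given in the sources used here, so the split between copies of an isodecoder is uncertain. Of the 552 genes, 266 were the sole copy of their isodecoder, 213 shared it with other copies and 73 had no isodecoder number.

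Library totals ran from 14083584 to 93919776.5 tags, where each mate of a read pair counts 0.5 tag, and the members took only 120 to 22131 tags per library, or at least 684 in labelled cells. This small number of tags limits the precision of every family but the leading ones. Levels below are deposited values in tags per 10M, multiplied by the spike-in factor that the authors' ratios give for each library. That factor is set to 1 in the untreated library of each replicate number, so levels are compared within a number. The members' summed level in untreated replicate 1, 356, was lower than in replicate 2, 575, a ratio of 0.619, while the same ratio was 0.912 at both times of ML-60218 and 1.02 to 1.54 in the other inhibitor groups. Percentages of untreated cells were therefore higher in replicate 1 than in replicate 2 in each of the 6 inhibitor groups, and every comparison with untreated cells shares these same 2 libraries.

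In untreated cells most nascent tRNA of these genes came from a few families. His-GTG, which reads histidine codons, had levels of 141 and 279 in replicates 1 and 2, and Glu-CTC, a glutamate family, had 56.0 and 107. Lys-CTT, a lysine family, had 48.1 and 46.1. These 3 families made up 72.8% of the members' mean value, and the first 10 families made up 89.5%. The order continued with Asp-GTC for aspartate at 16.8 and 28.4, Leu-CAG for leucine at 14.1 and 17.4, and Gly-TCC for glycine at 12.3 and 13.1. Leu-AAG had 9.86 and 7.04, Ser-GCT 4.77 and 7.95, Ser-TGA 6.29 and 6.32, and Asn-GTT 4.77 and 6.20. His-GTG lay above every other family in both replicates. Between replicates, Asp-GTC overlapped with Leu-CAG, Leu-AAG with Ser-GCT and Ser-GCT with Ser-TGA, and the other neighbours in this order did not overlap. Divided by gene length, the first 5 families kept this order, at 292, 113, 64.5, 31.4 and 18.97 tags per 10M and 100 bases. The initiator family iMet-CAT, which starts translation, lay far down the list at 0.55 and 0.82, on 2.5 and 5.5 tags.

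**Figure D1:**
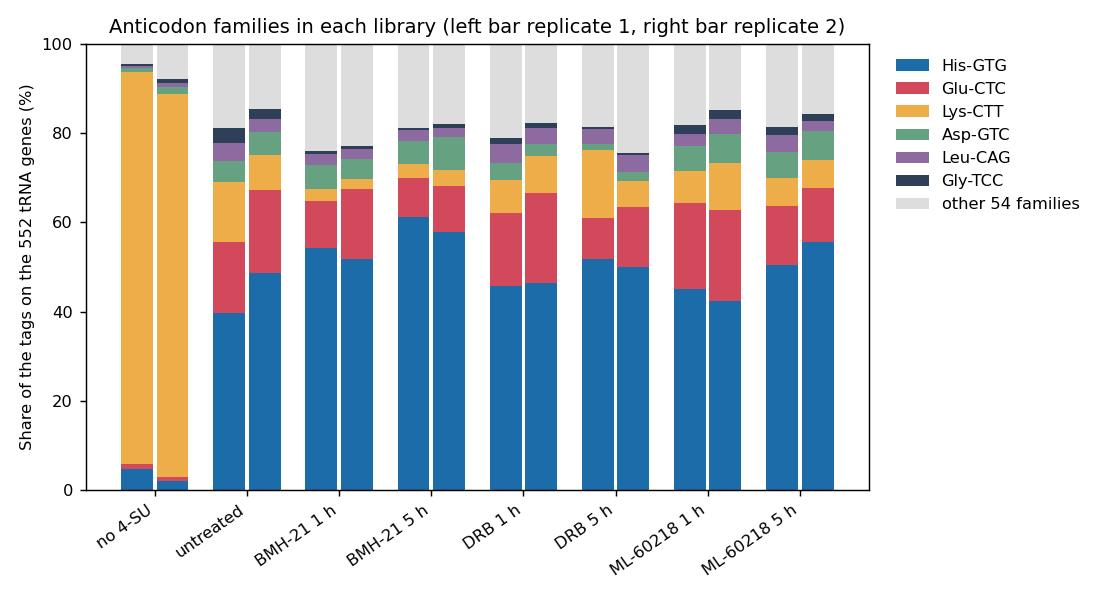
Share of the members' tags (percent, vertical axis) taken by 6 families and by the other 54 families in each of the 16 libraries (horizontal axis). Lys-CTT takes 87.9% and 85.8% without 4-SU, while His-GTG leads in every labelled library, from 39.8% in untreated replicate 1 to 61.2% in BMH-21 5 h replicate 1.

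Few genes carried these families. Coordinates are those of the files, on hg38, and names in brackets are RefSeq's, which matched 374 of the 552 genes by name, 371 of them at the same coordinates. tRNA-His-GTG-1-7 (TRH-GTG1-7, chromosome 15, 45198606 to 45198677, minus strand) gave 19.04% of the members' untreated value, with deposited values of 54.01 and 123. tRNA-His-GTG-1-8 (TRH-GTG1-8, 45200413 to 45200484, minus strand) had 40.0 and 72.5, and tRNA-His-GTG-1-9 (TRH-GTG1-9, 45201151 to 45201222, plus strand) had 18.9 and 29.2. The first 2 of these lie inside the span of the protein-coding gene SHF. Together the 3 neighbours on chromosome 15 held 36.3% of the untreated value of all members.

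A second group of 32 member genes lay on chromosome 1 between 161399700 and 161540314, with no gap above 50 kb between neighbours, and held 27.3% of the untreated value. It was led by tRNA-Glu-CTC-1-3 (TRE-CTC1-3, 161454608 to 161454679, minus strand) at 55.4 and 106. The same group held tRNA-Asp-GTC-2-1 (TRD-GTC2-1, 161440825 to 161440896, minus strand) at 11.4 and 21.3, tRNA-Leu-CAG-1-1 (TRL-CAG1-1, 161441533 to 161441615, plus strand) at 8.79 and 10.6, and tRNA-Gly-TCC-2-2 (TRG-TCC2-2, 161447585 to 161447656, minus strand) at 8.03 and 6.68. tRNA-Glu-CTC-1-3 took 98.8% of the labelled tags of its family, although Glu-CTC-1 has 7 copies in the table. Elsewhere, tRNA-His-GTG-1-1 (TRH-GTG1-1, chromosome 1, 146038044 to 146038115) had 10.2 and 25.6, tRNA-His-GTG-1-4 (TRH-GTG1-4, chromosome 1, 148302734 to 148302805) had 11.4 and 13.96, and tRNA-His-GTG-1-5 (TRH-GTG1-5, chromosome 6, 27158127 to 27158198) had 5.75 and 14.3. The 10 leading genes, which include tRNA-Lys-CTT-10-1 described next, gave 77.5% of the members' untreated value. At the other end, 126 genes had no tag in any library, and 341 had under 10 tags over all 16.

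Without 4-SU the members' summed level was 4.04 in replicate 1 and 5.78 in replicate 2, or 1.14% and 1.005% of untreated cells. In the limma fit, 32 of the 34 families with enough tags to be tested were higher in untreated cells than in cells without 4-SU at an adjusted p under 0.05, against 95.2% of all 42 features tested. Arg-ACG (limma, adjusted p = 0.142) and Pro-CGG (limma, adjusted p = 0.327) did not pass. Their untreated levels were 0.11 and 0.81 for Arg-ACG and 0.11 and 0.37 for Pro-CGG. With 0.5 added to each level before the log, little difference could appear, so the test cannot decide for these families. The 42 features, here and below, were the 34 families and 8 others, the members' sum and 5S rRNA among them. Shares over all 42 therefore rest mostly on the same families and are no outside reference. The fitted log2 difference was 8.25 ± 0.37 (SE) for His-GTG, 7.16 ± 0.36 for Glu-CTC and 5.31 ± 0.38 for Asp-GTC, but 3.34 ± 0.40 for Lys-CTT (limma, adjusted p = 1.63e-09). Without 4-SU the levels of His-GTG, Glu-CTC and Asp-GTC lay below the 0.5 added before the log. Their differences are therefore smaller than the levels themselves give, and their order largely follows the untreated level. Thr-CGT had no tag in either library without 4-SU, which allows up to 0.782% of its untreated level in replicate 1 and 2.56% in replicate 2, counting error only.

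A single gene accounted for most of the signal without 4-SU. tRNA-Lys-CTT-10-1 (chromosome 19, 35575848 to 35575920, plus strand; no RefSeq tRNA name matched, inside the span of the long noncoding gene LOC124904704) had deposited values of 39.8 and 29.9 without 4-SU and 45.5 and 43.5 in untreated cells. It took 86.8% ± 1.30 (SD, n = 2) of all member tags without 4-SU. On the spike-in scale its level without 4-SU was 7.79% and 11.4% of untreated cells, while the other 551 genes together were at 0.162% and 0.151%. Of the 211 genes with at least 10 tags over all libraries, 171 had no tag at all without 4-SU, and apart from tRNA-Lys-CTT-10-1 the highest had 10 tags over both such libraries. Without this gene the log2 difference of the member sum between untreated cells and cells without 4-SU was 8.47, against 6.40 with it. The level of the other 551 genes without 4-SU, 0.502 and 0.804, was close to the 0.5 added before the log, so 8.47 is an underestimate. Relative to the mRNA table, the sign of the Lys-CTT difference turned, at -2.42. That table itself stood at 1.05% and 2.72% of untreated cells without 4-SU, and its fall enters this value.

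**Figure D2:**
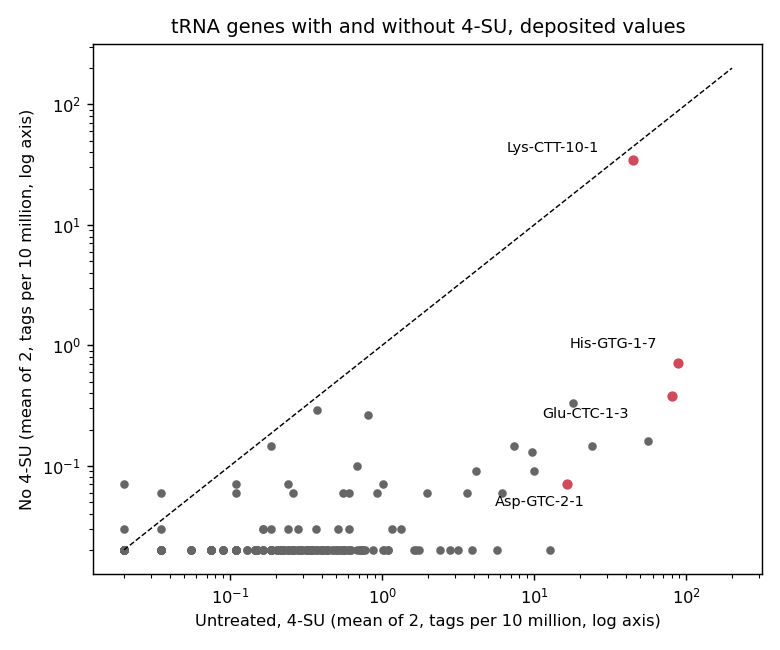
Mean deposited value of 211 genes with at least 10 tags (tags per 10M, log axes), in untreated cells on the horizontal axis and in cells without 4-SU on the vertical axis, with values under 0.02 drawn at 0.02 and a dashed line of equal values. tRNA-Lys-CTT-10-1 lies near the line at 44.5 and 34.9, while tRNA-His-GTG-1-7 lies far below it at 88.5 and 0.715.

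Cells given ML-60218 did not show lower nascent tRNA from these genes. The members' summed level was 804 and 881 after 1 h and 791 and 868 after 5 h, each above the untreated library of its number (356 and 575). This was 189.7% ± 51.4 of untreated cells after 1 h and 186.8% ± 50.5 after 5 h (SD, n = 2), while the mRNA table stood at 97.7% and 104% after 1 h and 86.3% and 98.1% after 5 h. The fitted log2 difference of the sum was 0.90 with a 95% interval from 0.15 to 1.64 after 1 h, and 0.87 from 0.13 to 1.62 after 5 h, and neither passed (limma, adjusted p = 0.0915 and 0.118).

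Among single families, 5 of 34 rose after 1 h of ML-60218 and none fell, against 14.3% of all 42 features called. After 5 h, 6 rose and none fell, against 16.7%. The median log2 difference of the 34 was 0.70 after 1 h and 0.73 after 5 h, beside 0.71 and 0.70 over all 42 features, and 31 and 32 of the 34 had positive estimates. Leu-TAG, a leucine family, rose at both times, and it was named after its values were seen. Its level was 2.82 and 5.94 in untreated cells, 15.7 and 17.6 after 1 h, and 15.5 and 20.3 after 5 h. Each treated library thus lay above the untreated library of its number. The log2 difference was 1.89 ± 0.41 (SE) after 1 h and 1.98 ± 0.41 after 5 h (limma, adjusted p = 0.00106 and 0.000482).

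Asp-GTC also rose at both times. Its level went from 16.8 and 28.4 in untreated cells to 45.4 and 56.8 after 1 h and 46.6 and 56.6 after 5 h, a log2 difference of 1.20 ± 0.41 and 1.21 ± 0.41 (limma, adjusted p = 0.0499 and 0.0371). Both calls were lost without the replicate block (adjusted p = 0.0663 and 0.0841) and without untreated replicate 1 or either ML-60218 library of that time. The 1 h call was also lost by edgeR (adjusted p = 0.0582). Over sole-copy isodecoders the difference was -0.11 at 1 h and 1.59 at 5 h. Glu-CTC rose after 1 h, with 156 and 179 against 56.0 and 107 (log2 difference 1.11 ± 0.39, limma adjusted p = 0.0499), and after 5 h stood at 106 and 105, a difference of 0.44 that did not pass. His-GTG passed after 5 h, with 399 and 482 against 141 and 279 (1.14 ± 0.39, limma adjusted p = 0.0371), and stood at 362 and 374 after 1 h. Ser-GCT was called at both times, Trp-CCA after 1 h, and Ile-AAT and Val-CAC after 5 h, and these were also named after their values were seen.

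The ML-60218 calls rested on untreated replicate 1: without it, none of the 34 families was called at either time, and the difference of the sum was 0.46 after 1 h and 0.44 after 5 h. Without untreated replicate 2 the sum passed at both times, at 1.33 and 1.31 (limma, adjusted p = 0.0355 and 0.0464). No family was called at either time without ML-60218 replicate 2 either, or when the families were fitted jointly with the genes of the mRNA and 45S tables, and without ML-60218 replicate 1 the counts were 0 and 1. A second scale was set within tRNA, by TMM factors over the tRNA families. The median log2 difference of all 42 features was 0.71 and 0.70 after 1 h and 5 h of ML-60218 on the spike-in scale and -0.19 and 0.05 on this one, 0.56 and 0.82 against 0.14 and 0.06 for BMH-21, and 0.12 and 0.11 against 0.01 and -0.17 for DRB. On it, no family was called after 1 h, against 4.76% of all features, with 3 at an unadjusted p under 0.05 in limma and none called by edgeR or DESeq2. After 5 h only Leu-TAG was called on that scale (log2 difference 1.29, limma adjusted p = 0.0272, against 2.38% of all features), and it was not called without untreated replicate 1 (0.95, adjusted p = 0.892).

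**Figure D3:**
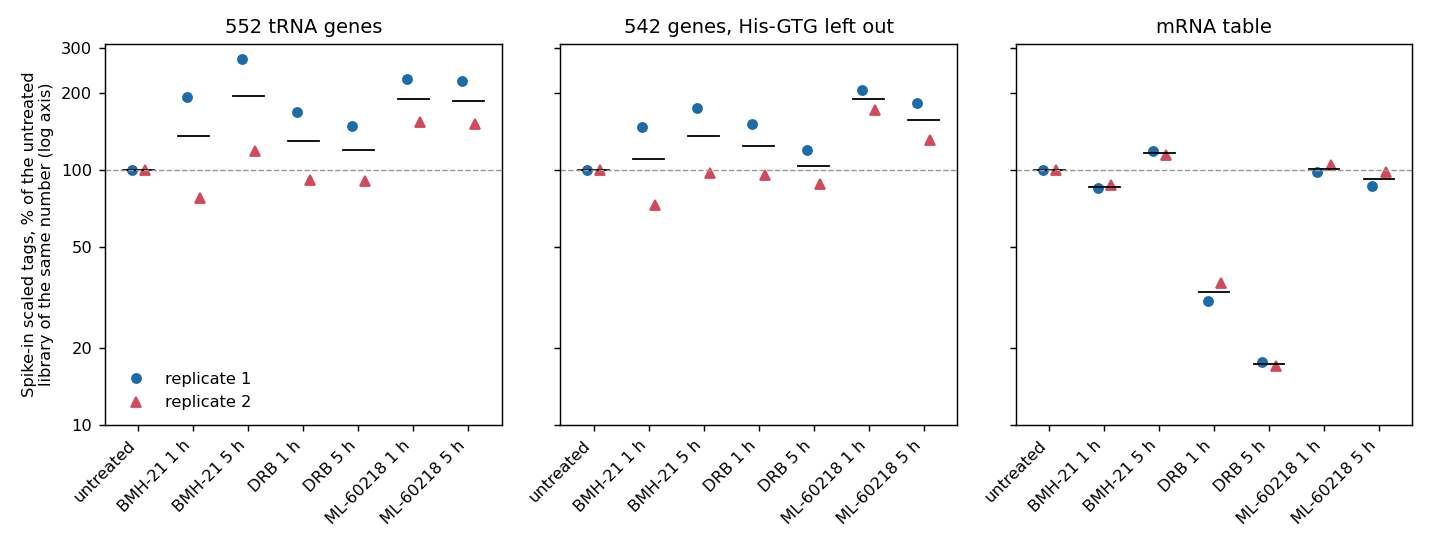
Summed level as a percentage of the untreated library of the same replicate number (log axis) for all 552 genes, for the 542 genes without His-GTG and for the mRNA table, in each group. Circles are replicate 1, triangles replicate 2 and lines the means: ML-60218 lies between 151% and 226% for the 552 genes, and in DRB 5 h the mRNA table is at 17.6% and 17.01%.

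Under BMH-21 some families stood lower than in untreated cells and others higher. The members' summed level was 688 and 446 after 1 h, or 194% and 77.6% of untreated cells, and 964 and 681 after 5 h, or 271% and 119%. The 2 replicates lay on opposite sides of untreated cells after 1 h, and neither log2 difference passed, at 0.29 after 1 h (limma, adjusted p = 0.523) and 0.84 after 5 h (adjusted p = 0.0905). After 1 h the sum's estimate turned sign without untreated replicate 1, at -0.14, and without BMH-21 replicate 1, at -0.04. After 5 h it passed without untreated replicate 2, at 1.28 (limma, adjusted p = 0.0385).

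After 1 h, 4 of 34 families were called, 2 higher and 2 lower, against 9.52% of all 42 features. Lys-CTT fell from 48.1 and 46.1 to 18.3 and 9.68, a log2 difference of -1.78 ± 0.42 (limma, adjusted p = 0.00148). Gly-TCC fell from 12.3 and 13.1 to 4.34 and 3.15, a difference of -1.65 ± 0.40 (limma, adjusted p = 0.00148). In both families each treated library lay below the untreated library of its number. Leu-TAG rose from 2.82 and 5.94 to 19.7 and 10.9, a difference of 1.72 ± 0.41 (limma, adjusted p = 0.00148), and Leu-TAA, named after its values were seen, rose by 1.47 ± 0.48 (limma, adjusted p = 0.0365).

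After 5 h of BMH-21, 8 of 34 families were called, 7 higher and 1 lower, against 23.8% of all features (21.4% higher). His-GTG rose from 141 and 279 to 589 and 394, a log2 difference of 1.28 ± 0.39 (limma, adjusted p = 0.0149). Leu-TAG stood at 21.02 and 13.6 (1.91 ± 0.41, adjusted p = 0.000883), Ser-GCT at 24.05 and 13.6 (1.48 ± 0.41, adjusted p = 0.0132) and Asp-GTC at 49.4 and 51.0 (1.18 ± 0.41, adjusted p = 0.0296, all limma). Ala-TGC, Leu-TAA and Val-AAC were called higher as well and were named after their values were seen. Ala-TGC had deposited values of 10.6 and 4.79 after 1 h and 6.99 and 4.09 after 5 h of BMH-21, and at most 1.64 in any other library. It passed the filter on tags only through the BMH-21 libraries, so its call, counted among the 7, is no independent support. Gly-TCC was the family called lower, at 4.74 and 5.62 (-1.22 ± 0.40, limma, adjusted p = 0.0219). That call did not hold on the spike-in scale without any 1 of the 4 libraries compared, with differences from -1.33 to -1.11. Lys-CTT at 31.4 and 24.7 did not pass (-0.75, limma, adjusted p = 0.139).

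The lower Lys-CTT level after 1 h lay in tRNA-Lys-CTT-10-1, the gene with most of the signal without 4-SU, which stood at 30.2% and 14.9% of untreated cells. Without it the family's log2 difference was 0.47 on the spike-in scale and 0.34 on the scale set within tRNA. Its deposited values after 1 h of BMH-21, 47.0 and 16.3, lay on both sides of those in untreated cells, 45.5 and 43.5. The lower Gly-TCC level lay in copies of Gly-TCC-2. tRNA-Gly-TCC-2-2 was at 9.09% and 12.9% of untreated cells after 1 h and 20.9% and 30.7% after 5 h, and tRNA-Gly-TCC-2-3 (chromosome 1, 161454966 to 161455037, minus strand) was at 39.0% and 30.8%, then 32.8% and 37.7%. Summed over sole-copy isodecoders only, Gly-TCC had positive differences of 0.45 after 1 h and 0.79 after 5 h.

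Within the cells given BMH-21 the copies of His-GTG-1 stood at different percentages of untreated cells, a difference that was not tested. tRNA-His-GTG-1-7 stood at 411% and 96.5% of untreated cells after 1 h and at 593% and 163% after 5 h, while its neighbour tRNA-His-GTG-1-8 stood at 82.5% and 81.8%, then 216% and 96.1%. These copies share an isodecoder, so their split carries the uncertainty named above. The family's share of member tags was 39.8% and 48.6% in untreated cells and 61.2% and 57.8% after 5 h of BMH-21.

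Without untreated replicate 1, no family was called on the spike-in scale at either time of BMH-21, and none was called after 5 h without BMH-21 replicate 1 or in the joint fit with the mRNA and 45S tables. When each family was summed without its leading gene, none was called after 1 h. The count after 1 h was 2 without BMH-21 replicate 1 and 1 without BMH-21 replicate 2, and after 5 h it was 4 without BMH-21 replicate 2 and 5 without untreated replicate 2. On the scale set within tRNA, 3 families were called after 1 h (1 higher, 2 lower, against 9.52% of all features) and 4 after 5 h (1 higher, 3 lower, against 9.52%). There Gly-TCC was lower by -2.16 after 1 h and -2.04 after 5 h (limma, adjusted p = 0.000154 and 0.000309) and passed without each library in turn. Lys-CTT was lower by -2.27 and -1.57 (adjusted p = 0.000385 and 0.0147), and Glu-CTC by -0.84 after 5 h (adjusted p = 0.0399). Leu-TAG was higher by 1.31 and 1.16 (adjusted p = 0.00609 and 0.0219), and did not pass without untreated replicate 1 (adjusted p = 0.183 and 0.482). Leaving out any 1 library ended the Lys-CTT and Glu-CTC calls at 5 h, with the highest adjusted p at 0.244.

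**Figure D4:**
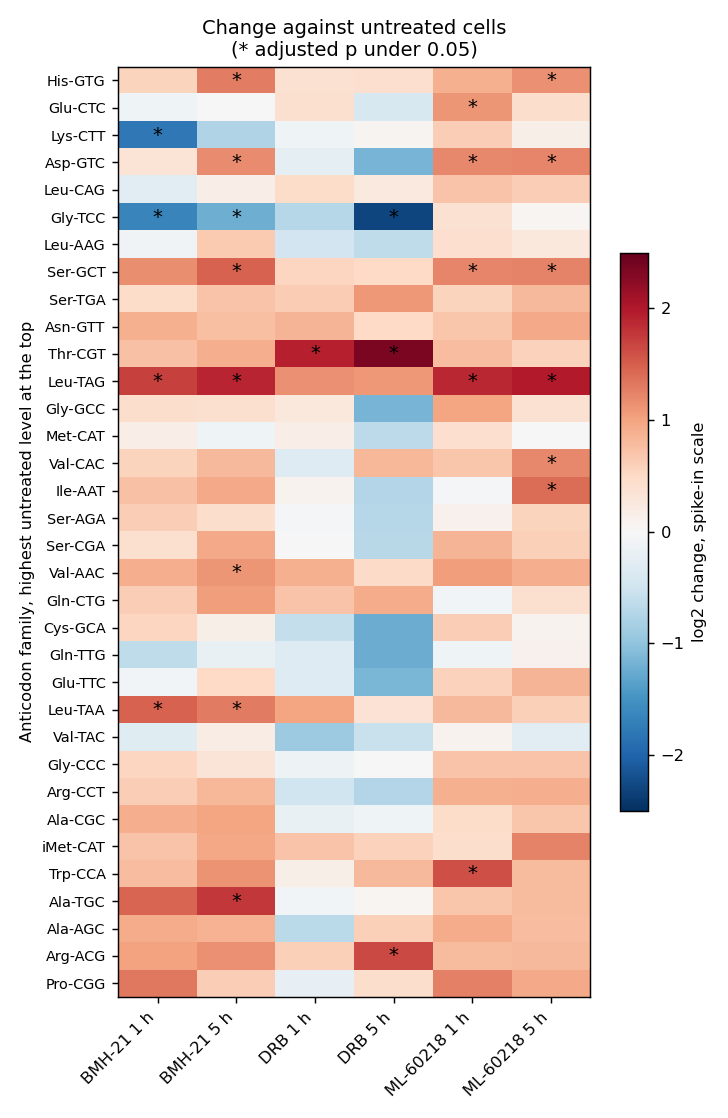
Fitted log2 difference from untreated cells on the spike-in scale for 34 families (rows, ordered by untreated level) in 6 comparisons (columns), with an asterisk where the adjusted p was under 0.05. Gly-TCC is lower under BMH-21 and after 5 h of DRB, and Thr-CGT is highest under DRB, at 1.94 and 2.34.

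Under DRB the mRNA table stood at 30.6% and 36.05% of untreated cells after 1 h and at 17.6% and 17.01% after 5 h, while the members' summed level lay on both sides of untreated cells. The sum was 599 and 526 after 1 h, or 168% and 91.6% of untreated cells, and 530.3 and 519.6 after 5 h, or 149% and 90.4%. The log2 difference was 0.31 after 1 h and 0.22 after 5 h (limma, adjusted p = 0.742 and 0.643), and it was -0.12 and -0.22 without untreated replicate 1. Relative to the mRNA table in place of the spike-in, the differences were 1.90 and 2.68 and both passed. The mRNA table itself fell under DRB, so these 2 differences carry its fall and do not by themselves show a rise of tRNA.

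On the spike-in scale 1 of 34 families was called after 1 h, against 2.38% of all 42 features, and 3 after 5 h, 2 higher and 1 lower, against 9.52%. The 5 h count was 5 without untreated replicate 2 (4 higher, 1 lower), 7 without DRB replicate 1 (4 higher, 3 lower) and 9 without DRB replicate 2 (1 higher, 8 lower). Thr-CGT, a threonine family, was the family called at 1 h, and like Gly-TCC under DRB it was named after its values were seen. Its level was 4.02 and 5.65 in untreated cells, 20.3 and 19.1 after 1 h, and 22.1 and 31.1 after 5 h. Each DRB library lay above the untreated library of its number, with log2 differences of 1.94 ± 0.40 and 2.34 ± 0.40 (limma, adjusted p = 0.000365 and 6.28e-06). Its leading gene, tRNA-Thr-CGT-4-1 (TRT-CGT4-1, chromosome 17, 31550074 to 31550145, plus strand), is the sole copy of its isodecoder and took 90.1% of the family's labelled tags. It stood at 588% and 400% of untreated cells after 1 h and 684% and 641% after 5 h. The 1 h call was lost without untreated replicate 1 (difference 1.71, adjusted p = 0.0575), and the 5 h call held without each library in turn. When each family was summed without its leading gene, none was called under DRB at either time.

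Gly-TCC went the other way. From 12.3 and 13.1 in untreated cells it stood at 8.37 and 6.80 after 1 h and at 1.80 and 2.66 after 5 h, on 3 and 3.5 tags. The difference at 5 h was -2.29 ± 0.40 (limma, adjusted p = 6.28e-06) and passed without each library in turn. It did not pass over sole-copy isodecoders (-0.66, limma, adjusted p = 0.416) or without the leading gene (-1.29, limma, adjusted p = 0.0981). On the mRNA scale it was -0.07 (limma, adjusted p = 0.863). That scale cannot decide here, because the mRNA table itself stood at 17.6% and 17.01% of untreated cells. tRNA-Gly-TCC-2-2 had no tag in DRB 5 h replicate 1, which allows up to 22.4% of its untreated level, and was at 11.4% in replicate 2. Arg-ACG was called higher after 5 h (1.64, limma, adjusted p = 0.0477), from untreated levels of 0.11 and 0.81 that rest on a few tags.

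Asp-GTC in DRB was at 139% and 51.0% of untreated cells after 1 h and at 48.0% and 38.8% after 5 h, on 13.5 and 14.5 tags, and its difference at 5 h of -1.17 ± 0.41 just missed the threshold (limma, adjusted p = 0.0504). On the scale set within tRNA it passed, at -1.54 (limma, adjusted p = 0.00103), but not without its leading gene (-0.47, adjusted p = 0.339) or over sole-copy isodecoders (-0.43, adjusted p = 0.536). On that scale 12 of 34 families were called after 5 h of DRB, 2 higher and 10 lower, against 35.7% of all 42 features (28.6% lower), and 1 after 1 h, against 2.38%. The lower families included Gly-TCC at -2.73 (adjusted p = 8.41e-06), Gly-GCC at -1.59 (adjusted p = 0.00896) and Glu-CTC at -0.76 (adjusted p = 0.0334, all limma), and Thr-CGT was higher at 2.05 (adjusted p = 5.87e-05). Cys-GCA, Gln-TTG, Glu-TTC, Leu-AAG, Met-CAT and Ser-AGA, named after their values were seen, were lower too, by -1.001 for Leu-AAG to -1.84 for Gln-TTG. In place of 12, the count was 6 without untreated replicate 1, 5 without untreated replicate 2, 7 without DRB replicate 1 and 15 without DRB replicate 2, and it was 4 by edgeR and by DESeq2.

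**Figure D5:**
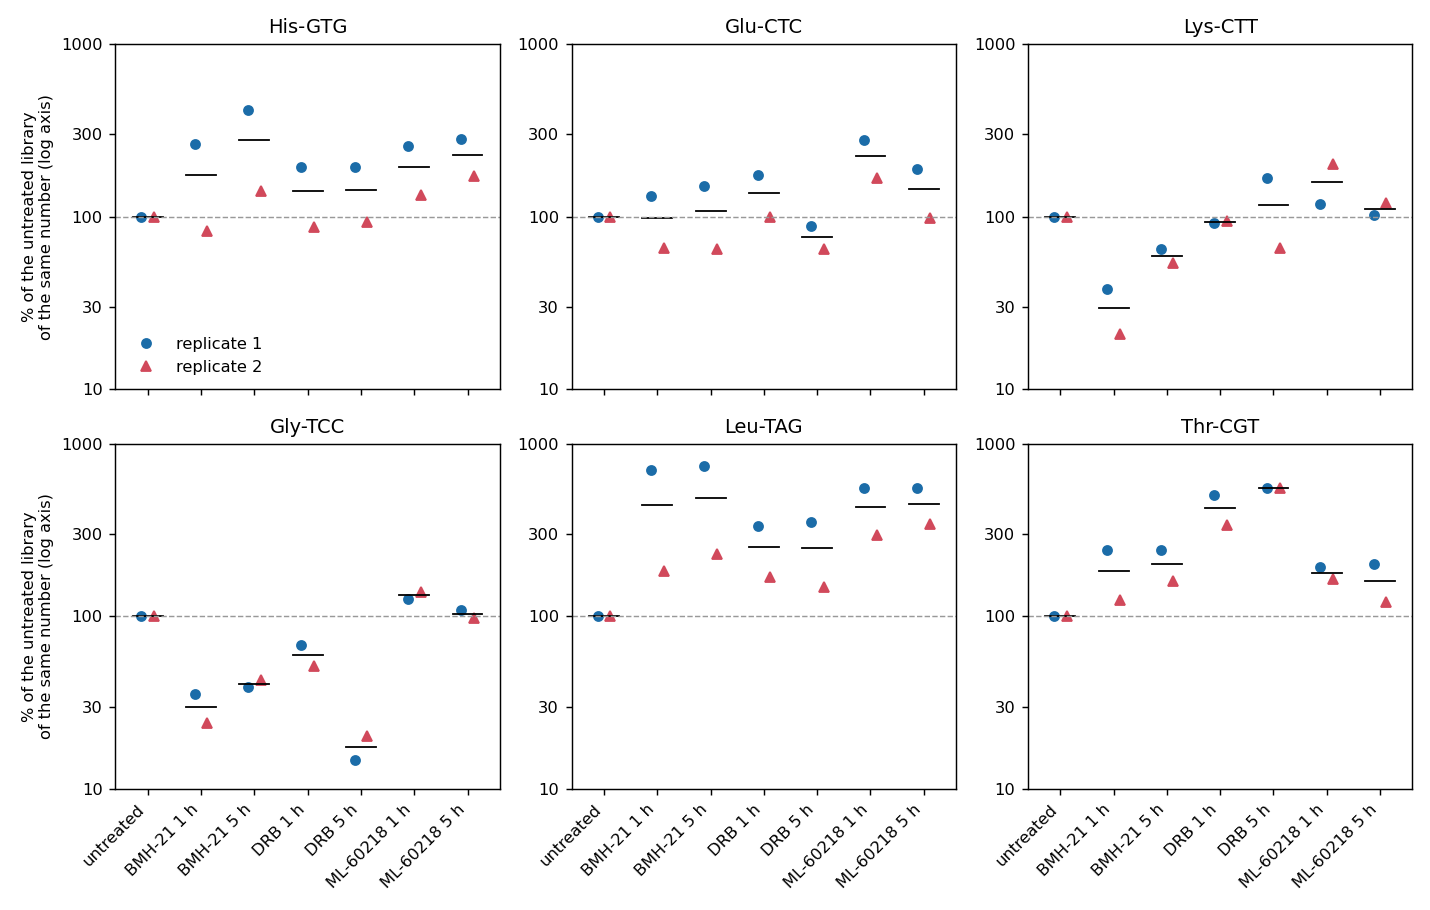
Level as a percentage of the untreated library of the same replicate number (log axis) for 6 families in each group, with circles for replicate 1, triangles for replicate 2 and lines at the means. Thr-CGT is highest in DRB, at 551% in both replicates after 5 h, and Gly-TCC is lowest there, at 14.7% and 20.3%.

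The other leading families, Leu-CAG, Ser-TGA, Leu-AAG and Asn-GTT, did not pass in the limma fit under any inhibitor on the spike-in scale. Leu-CAG ranged from 55.2% to 210% of untreated cells over the 12 inhibitor libraries, Ser-TGA from 108% to 271%, Leu-AAG from 51.4% to 163% and Asn-GTT from 113% to 292%. The initiator iMet-CAT ranged from 59.5% to 517%, on too few tags to be read.

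Between times within an inhibitor, few differences were found. After 5 h against 1 h of DRB, Gly-TCC was lower by -1.58 ± 0.40 and Gly-GCC, another glycine family, by -1.43 ± 0.43 (limma, adjusted p = 0.00786 and 0.0300), 2 of 34 families against 7.14% of all 42 features. Gly-GCC stood at 5.58 and 3.85 after 1 h and at 2.40 and 0.759 after 5 h, on 4 and 1 tags. Neither was called by edgeR or DESeq2, and without DRB 1 h replicate 1 or replicate 2 neither was called by limma, with adjusted p of 0.0615 to 0.286. Without DRB 5 h replicate 1 the adjusted p of Gly-TCC was 0.0892, and without DRB 5 h replicate 2 that of Gly-GCC was 0.258. No family differed between 5 h and 1 h of BMH-21 or of ML-60218 in limma (0% of all features in each, with 2 and 1 families at an unadjusted p under 0.05), nor in edgeR or DESeq2.

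The difference between ML-60218 and BMH-21 was tested directly at matched times. After 1 h, 3 of 34 families were higher under ML-60218, against 9.52% of all features, and 5 without BMH-21 replicate 1. Lys-CTT differed by 2.40 ± 0.42, at 56.5 and 93.1 under ML-60218 against 18.3 and 9.68 under BMH-21 (limma, adjusted p = 1.55e-05), but without tRNA-Lys-CTT-10-1 the difference was -0.54. Gly-TCC differed by 2.04 ± 0.40, at 15.5 and 18.1 against 4.34 and 3.15 (adjusted p = 6.79e-05). Glu-CTC differed by 1.21 ± 0.39, at 156 and 179 against 73.5 and 70.3 (adjusted p = 0.0423, all limma), and did not pass without BMH-21 replicate 2, ML-60218 replicate 1 or ML-60218 replicate 2 (adjusted p up to 0.244). After 5 h no family differed in limma (0% of all features, 2 families at an unadjusted p under 0.05), while edgeR and DESeq2 called 1 each. The member sums differed by 0.60 after 1 h and 0.03 after 5 h, and neither passed (limma, adjusted p = 0.468 and 0.959).

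Genes grouped by position and copy number are given as percentages of untreated cells, with no test between groups of genes. The chromosome 1 group stood at 125% and 59.8% of untreated cells after 1 h of BMH-21, at 73.8% and 56.6% after 5 h of DRB, and at 242% and 172% after 1 h of ML-60218. The chromosome 15 group stood at 279% and 89.1%, 201% and 97.5%, and 267% and 128% in the same groups. After 5 h of ML-60218 the chromosome 1 group stood at 184% and 113% and the chromosome 15 group at 300.4% and 179.9%. Sole-copy isodecoders together stood at 173% and 185% after 1 h of ML-60218 and 135% and 77.2% after 1 h of BMH-21, and genes with several copies at 243% and 148%, and 211% and 77.4%. In untreated cells tRNA-Lys-CTT-10-1 gave 45.5 and 43.5 of the 82.4 and 91.1 of the sole-copy class. That gene stood at 121% and 206% after 1 h of ML-60218 and 30.2% and 14.9% after 1 h of BMH-21. The percentages of the sole-copy class therefore depend strongly on it. The 81 genes inside the span of a protein-coding gene stood at 191% and 77.5% after 1 h and 204% and 102% after 5 h of DRB, while the 471 outside stood at 159% and 99.4%, then 127% and 84.0%. Under ML-60218 the genes inside stood at 264% and 120.5% after 1 h and 288% and 175% after 5 h, and those outside at 211% and 172%, then 196% and 138%. In untreated cells the genes inside had a summed level of 101.55 and 204. Most of it came from tRNA-His-GTG-1-7 (54.01 and 123) and tRNA-His-GTG-1-8 (40.0 and 72.5). The percentages of the genes inside therefore mainly describe these copies of His-GTG-1, whose split is uncertain. No strand option is named in the file headers, so tags from a host gene and from the tRNA gene inside it cannot be told apart.

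The genes of the machinery that makes and matures tRNA are themselves mRNA genes. Of a list of 62 gene names, 16 were in the mRNA table and tested. On that list DNMT2, not found, and TRDMT1, tested, name the same gene. Under ML-60218 none of the 16 was called at either time in limma, against 0% and 0.0194% of 5164 genes, with 0 and 2 at an unadjusted p under 0.05 and 0 and 3 called by edgeR. Under BMH-21 none was called after 1 h or 5 h (against 0% and 0.0387% of genes), with 2 and 1 at an unadjusted p under 0.05 and 3 and 2 called by edgeR. Under DRB 15 of the 16 fell after 1 h, against 75.7% of all genes called lower, and 15 after 5 h, against 83.6%. Their median log2 difference was -2.03 and -3.56, beside -1.62 and -2.67 over all genes.

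The 4 list members with the smallest p after 1 h of DRB were RPP25 and POP4, subunits of RNase P, GTF3C4, a subunit of TFIIIC, and CTU1, a tRNA thiolation enzyme. After 5 h they were PUS7, a pseudouridine synthase, RPP25, BDP1, a subunit of TFIIIB, and WDR4, a subunit of a tRNA methyltransferase. RPP25 went from a mean level of 177 in untreated cells to 18.3 after 1 h and 5.35 after 5 h (log2 differences -3.26 and -4.92). GTF3C4 went from 202 to 9.80 and 6.98, POP4 from 32.4 to 2.29 and 3.13, and CTU1 from 73.3 to 3.53 and 3.63. PUS7 went from 177 to 65.7 and 7.46, BDP1 from 121 to 59.1 and 8.42, and WDR4 from 172 to 114 and 8.21. POLR3A, the largest subunit of RNA polymerase III, fell by 0.94 and 3.33 on the log2 scale. POLR3E, another subunit, was the member not called, at 0.12 and 0.38 (limma, adjusted p = 0.598 and 0.0837).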

How the data were processed

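Per the labels' protocols, stranded libraries were made without rRNA depletion and with 10 PCR cycles, after a step that precipitates RNA under 200 nt. Per the submitters' processing notes, STAR 2.7.7a, Trim Galore 0.6.5, FastQC 0.11.9 and HOMER were used, with builds GRCh38 and R64. Per the file headers, HOMER counted tags on hg38 with no strand option. The deposited signal, headed as raw counts, holds tags per 10M. Multiplied by the library total, 9796 of 9796 low tRNA values (under 20 tags per 10M) fell on a multiple of 0.5 tag to within 0.0051 tags per 10M. Beside it stands the authors' ratio of each library over the untreated library of its number, from which spike-in factors were taken. The rRNA table, in the same deposited unit (other), entered an alternative only.

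Because the values were not raw counts, families were tested as log2(deposited value × factor + 0.5) with limma 3.58.1 (trend), group means and replicate number as a block, after filterByExpr (10 tags), with Benjamini-Hochberg adjustment over 42 features. The block follows the authors' ratios, which pair libraries by number. Deviations of same-numbered libraries correlated at -0.18 to 0.53 across tRNA families (16 of 21 group pairs over 0.1). Across 5164 mRNA genes, tested with the same block, they correlated less, at -0.026 to 0.298 (7 of 21 over 0.1). edgeR 4.0.16 and DESeq2 1.42.0 ran on recovered tags, in R 4.3.3, and tables were made with Python 3.11.15. The steps were run on simulated tags that had no shift shared by the families of a library. That run therefore does not cover replicate differences such as those of the untreated libraries. The 10 families highest in untreated cells were described at any value. A change of a family was named by rule where it was called with a mean of at least 50 tags and no overlap between groups. The overlap rule compared libraries across replicate numbers, although the spike-in scale is set within a number. Other called changes, also of those 10 families, were named after their values were seen. Members and lists were chosen with earlier results of these data known. Alternatives changed the scale, block, filter, pseudocount, genes summed, libraries and test. Floors (3 tags) cover counting error only, and intervals of log2 differences come from the limma fit.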

Additional observations from a re-analysis of the deposited data

Results flagged for a closer look

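The change between 1 h and 5 h of DRB, each against untreated cells, differed for a pair of glycine families by the test of the difference itself. Gly-TCC was lower after 5 h by -1.58 on the log2 scale and Gly-GCC by -1.43 (limma, adjusted p = 0.00786 and 0.0300). Gly-TCC was lower in 5 h than in 1 h in both replicate numbers (1.80 against 8.37, and 2.66 against 6.80), and so was Gly-GCC (2.40 against 5.58, and 0.759 against 3.85). The 5 h values rest on 1 to 4 tags per library, and edgeR and DESeq2 called neither family.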

How the results depend on the processing

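Of 480 alternative values for counts of families and sums, 335 kept their direction, their side of the threshold and, for counts, lay within 1.5 times, and 15 turned sign. Of 507 for named families, 350 kept direction and call, 149 lost the call and 8 turned sign. Where no cause is given, the cause was not tested. Depth limits most families, and 26 of the 60 could not be tested.

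With only the libraries compared in the fit, the number of families called on the spike-in scale was 0 for BMH-21 1 h, 5 for BMH-21 5 h, 0 for DRB 1 h, 7 for DRB 5 h, 3 for ML-60218 1 h, 19 for untreated against no 4-SU, 1 for BMH-21 5 h against 1 h, 0 for DRB 5 h against 1 h and 1 for ML-60218 against BMH-21 at 5 h. On the tRNA scale it was 6 for BMH-21 1 h, 0 for BMH-21 5 h, 0 for DRB 1 h, 4 for DRB 5 h and 1 for ML-60218 1 h. The sums at 0.90 for ML-60218 1 h and 0.55 for BMH-21 5 h against 1 h then passed. In the joint fit with the mRNA and 45S tables, which adjusts over more features, the count was 1 for BMH-21 1 h, 0 for BMH-21 5 h, 4 for DRB 1 h, 10 for DRB 5 h, 0 for ML-60218 1 h and 5 h and 6 for DRB 5 h against 1 h.

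With edgeR the count was 8 for BMH-21 1 h, 13 for BMH-21 5 h, 2 for ML-60218 1 h, 0 for DRB 5 h against 1 h and 1 for ML-60218 against BMH-21 at 5 h, and on the tRNA scale 5 for BMH-21 1 h and 4 for DRB 5 h. It called 3, 2 and 3 of the machinery genes for BMH-21 1 h, BMH-21 5 h and ML-60218 5 h. With DESeq2 the count was 7 for BMH-21 1 h, 14 for BMH-21 5 h, 0 for DRB 5 h against 1 h and 1 for ML-60218 against BMH-21 at 5 h, and 4 for DRB 5 h on the tRNA scale. DESeq2 also passed the sums at 0.81 for BMH-21 5 h and 0.85 and 0.83 for ML-60218 1 h and 5 h.

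Without the top gene of each family, the count was 0 for BMH-21 1 h, DRB 1 h and DRB 5 h, 1 for ML-60218 1 h, 2 for ML-60218 5 h, 20 for untreated against no 4-SU, and 1 each for ML-60218 5 h against 1 h and ML-60218 against BMH-21 at 1 h. On the tRNA scale it was 0 for BMH-21 1 h, 1 for BMH-21 5 h, 1 for DRB 5 h and 0 for ML-60218 5 h. Lys-CTT then turned to 0.47 for BMH-21 1 h (0.34 on the tRNA scale) and -0.54 for ML-60218 against BMH-21 at 1 h, and the sum to 0.000665 for ML-60218 5 h against 1 h and -0.16 for ML-60218 against BMH-21 at 5 h. With sole-copy isodecoders only, the count was 2 for BMH-21 1 h, 3 for BMH-21 5 h, 1 for ML-60218 1 h, 2 for ML-60218 5 h, 16 for untreated against no 4-SU, and 1 each for ML-60218 5 h against 1 h and ML-60218 against BMH-21 at 1 h. On the tRNA scale it was 2 for BMH-21 5 h, 2 for DRB 1 h and 7 for DRB 5 h. Gly-TCC then turned to 0.45 and 0.79 for BMH-21 1 h and 5 h (0.0712 for 5 h on the tRNA scale), Asp-GTC to -0.11 for ML-60218 1 h, and the sum to 0.29 for DRB 5 h against 1 h. Leaving tRNA-Lys-CTT-10-1 out of the sum, an alternative added after the data were seen, gave 0.0184 for ML-60218 5 h against 1 h and -0.0116 for ML-60218 against BMH-21 at 5 h. Leaving out His-GTG, added likewise, turned no sum and changed no call.

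On the mRNA scale, the count was 2 for BMH-21 5 h, 22 for DRB 1 h, 25 for DRB 5 h, 1 for ML-60218 1 h, 18 for untreated against no 4-SU, 5 for DRB 5 h against 1 h and 1 for ML-60218 against BMH-21 at 5 h. The sum was 1.90 for DRB 1 h, 2.68 for DRB 5 h, 0.62 for untreated against no 4-SU (no longer passing), 0.78 for DRB 5 h against 1 h and 0.12 for ML-60218 5 h against 1 h, and Lys-CTT was -2.42 for untreated against no 4-SU. The mRNA table itself lay far below untreated cells under DRB and without 4-SU, so the mRNA-scale values of those comparisons carry its fall. With the total of tRNA families in place of TMM, the count was 5 for BMH-21 1 h, 2 for DRB 1 h and 1 for ML-60218 1 h. With no filter on low values it was 3 for BMH-21 5 h, 2 for DRB 1 h, 5 for DRB 5 h, and 1 each for ML-60218 1 h, ML-60218 5 h and ML-60218 against BMH-21 at 5 h, and on the tRNA scale 3 for DRB 1 h and 7 for DRB 5 h. With no replicate block, and so without the pairing by number, it was 1 each for ML-60218 1 h, ML-60218 5 h and DRB 5 h against 1 h, and 6 for DRB 5 h on the tRNA scale. With a pseudocount of 2 it was 1 each for ML-60218 5 h against 1 h and ML-60218 against BMH-21 at 5 h.

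Leaving out a library in turn, where a group with 1 library is assumed to vary like the others, gave counts of 0 to 5 for BMH-21 1 h and for BMH-21 5 h, 0 to 2 for DRB 1 h, 4 to 9 for DRB 5 h, 0 to 6 for ML-60218 1 h, 0 to 5 for ML-60218 5 h, 0 to 1 for BMH-21 5 h against 1 h and for ML-60218 5 h against 1 h, 0 to 6 for DRB 5 h against 1 h and 2 to 5 for ML-60218 against BMH-21 at 1 h. On the tRNA scale they were 1 to 2 for BMH-21 5 h, 1 to 3 for DRB 1 h, 5 to 15 for DRB 5 h and 0 to 1 for ML-60218 5 h. The sum ran from -0.14 to 0.73 for BMH-21 1 h, 0.41 to 1.28 for BMH-21 5 h, -0.12 to 0.75 for DRB 1 h, -0.22 to 0.65 for DRB 5 h, 0.46 to 1.33 for ML-60218 1 h, 0.44 to 1.31 for ML-60218 5 h, -0.13 to 0.0870 for ML-60218 5 h against 1 h and -0.23 to 0.29 for ML-60218 against BMH-21 at 5 h.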
